A study of Mus musculus with 4 samples.

Results

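Residual lymphocyte and plasma cell transcripts were measured in cells of the mouse lymph node from which leukocytes had been removed. The set held 44 genes of 21392 tested, chosen by gene name from the probes of the arrays. It comprised 12 pan-leukocyte, 9 B cell, 16 T cell and 7 plasma cell genes, and was chosen with earlier results of these data known. The 44 genes had 71 probes, of which 65 passed the filter on dim probes (signal well above background in the whole of at least 1 node), and all 44 genes kept at least 1 such probe. Each gene was represented by its probe with the highest mean.

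The groups were CD45-negative cells of mesenteric lymph node (mLN), the node of the intestine, and of peripheral lymph node (pLN), both from wild-type C57BL/6NCrl mice. Collagenase released the cells and magnetic sorting isolated them, to a stated mean purity of 97.4% ± 2.0 for mLN and 97.5% ± 2.2 for pLN. RNA from 2 experiments was hybridised to single-dye Agilent arrays, 2 arrays for mLN and 2 for pLN. The labels do not say which peripheral nodes were taken, whether animals were pooled, or whether animals differed between the experiments. The p-values therefore reflect only how these samples scatter, which may be technical. The design text calls the isolated population stem cells, while its protocol selects only for absence of CD45.

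CD45 is a tyrosine phosphatase on the surface of nearly all cells of the blood lineage, and its absence is used to enrich the fibroblasts and endothelial cells that build a lymph node. B cells detect antigen with a membrane antibody coupled to CD79A and CD79B, and T cells with a receptor coupled to the CD3 chains. CD4 and CD8 are the co-receptors that divide T cells into helper and cytotoxic lineages. Plasma cells derive from B cells, secrete antibody, and in mucosal tissue attach the joining chain to polymeric immunoglobulin so that it can be carried across epithelium.

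The probes below read genes that the results turn on, with the IgM heavy chain (Igh-6) shown for comparison, and their first 30 of 60 bases are shown 5′ to 3′ in lower case with the files' coordinates on mm8. The joining chain, named Igj in the files and now Jchain, was read by probes at chr5:89595455-89595514 and chr5:89595625-89595684, both on the minus strand.
Igj, brightest probe: ctgtactagtctttctcttaacctctcact
Igj, other probe: gtaaatcctcatgtctgctcaaggagatat
The Cd8a probe lay at chr6:71306845-71306904 on the plus strand and the brighter Cd8b1 probe at chr6:71266583-71266641 on the plus strand. The other Cd8b1 probe was placed by the files at chr5:115404420-115404479, on another chromosome than the gene's first probe.
Cd8a, brightest probe: ttaggtatgtgtctttagtatagcatgctt
Cd8b1, brighter probe: ggaccctggagaagactgcaaatcctcaca
Cd8b1, other probe: gccatgatccagggaatgaaaagaaatttg
An immunoglobulin heavy-chain transcript that the files call Igh was read by 3 minus-strand probes, at chr12:113706582-113706641, chr12:113706720-113706779 and chr12:113706840-113706899. The files do not name the constant region these probes lie in. Igh-6, the IgM heavy chain Ighm, was read at chr12:113866458-113866517 on the minus strand.
Igh, first position: tcgggtaaacccaccaatgtcagcgtgtct
Igh, second position: gagggagccaccacctacctggtgacaagc
Igh, last position: tccctgacatgcctggtgcgagctttcaac
Igh-6, brightest probe: gccctccagcttttatctctgagatggtct

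Levels are given as multiples of the 75th percentile of each array's processed signal, which was 1686 to 1741 signal units, or as log2 of that multiple. Between 74.0% and 81.1% of probes were well above background on an array, and no probe was saturated. The labelled population was checked first. All 14 lymph node stroma markers and all 10 endothelial markers were well above background on every array. The summed stroma level was 1359 and 1477 multiples in mLN, against 1229 and 1326 in pLN. The largest shared log2 differences there were Lum at 0.86 and Vcam1 at 0.52, neither called. The summed endothelial level was 217.6 and 337.3 multiples in mLN, against 335.3 and 362 in pLN, with 8 of 10 genes negative, a median log2 difference of −0.54 and no call. The largest shared changes went the other way, with Madcam1 at 1.64 (limma adjusted p = 0.191) and Lyve1 at 1.04 (limma adjusted p = 0.105). Across all genes, limma called 225 at an adjusted p below 0.05 (Benjamini-Hochberg), which is 1.05% of those tested, with 0.776% higher and 0.276% lower in mLN. The median log2 difference over all genes was −0.03.

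Most genes of the set gave signal well above background in both preparations, as did most genes tested. All of them had passed the filter on dim probes, which largely sets these counts. Of the 44 genes, 43 were well above background on all 4 arrays, and Pax5 was so on 3, against 93.8% of all genes tested on all 4. None was called between the nodes by limma, while 6 had an unadjusted p below 0.05 and were higher in mLN (7.80% of all genes), and 2 had one and were lower (6.88% of all genes). Log2 fold changes were positive for 27 and negative for 17, where 44.3% of all genes were positive and 55.7% negative. In 15 genes both mLN arrays lay above both pLN arrays, as did 20.6% of all genes, and in 7 both lay below, as did 25.0%. Together 22 did not overlap between the nodes, against 45.6% of all genes. The median log2 difference of the set was 0.17, from −0.04 in experiment 1 and 0.26 in experiment 2. In these bulk samples fewer cells of a type and less RNA per cell cannot be told apart.

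**Figure D1:**
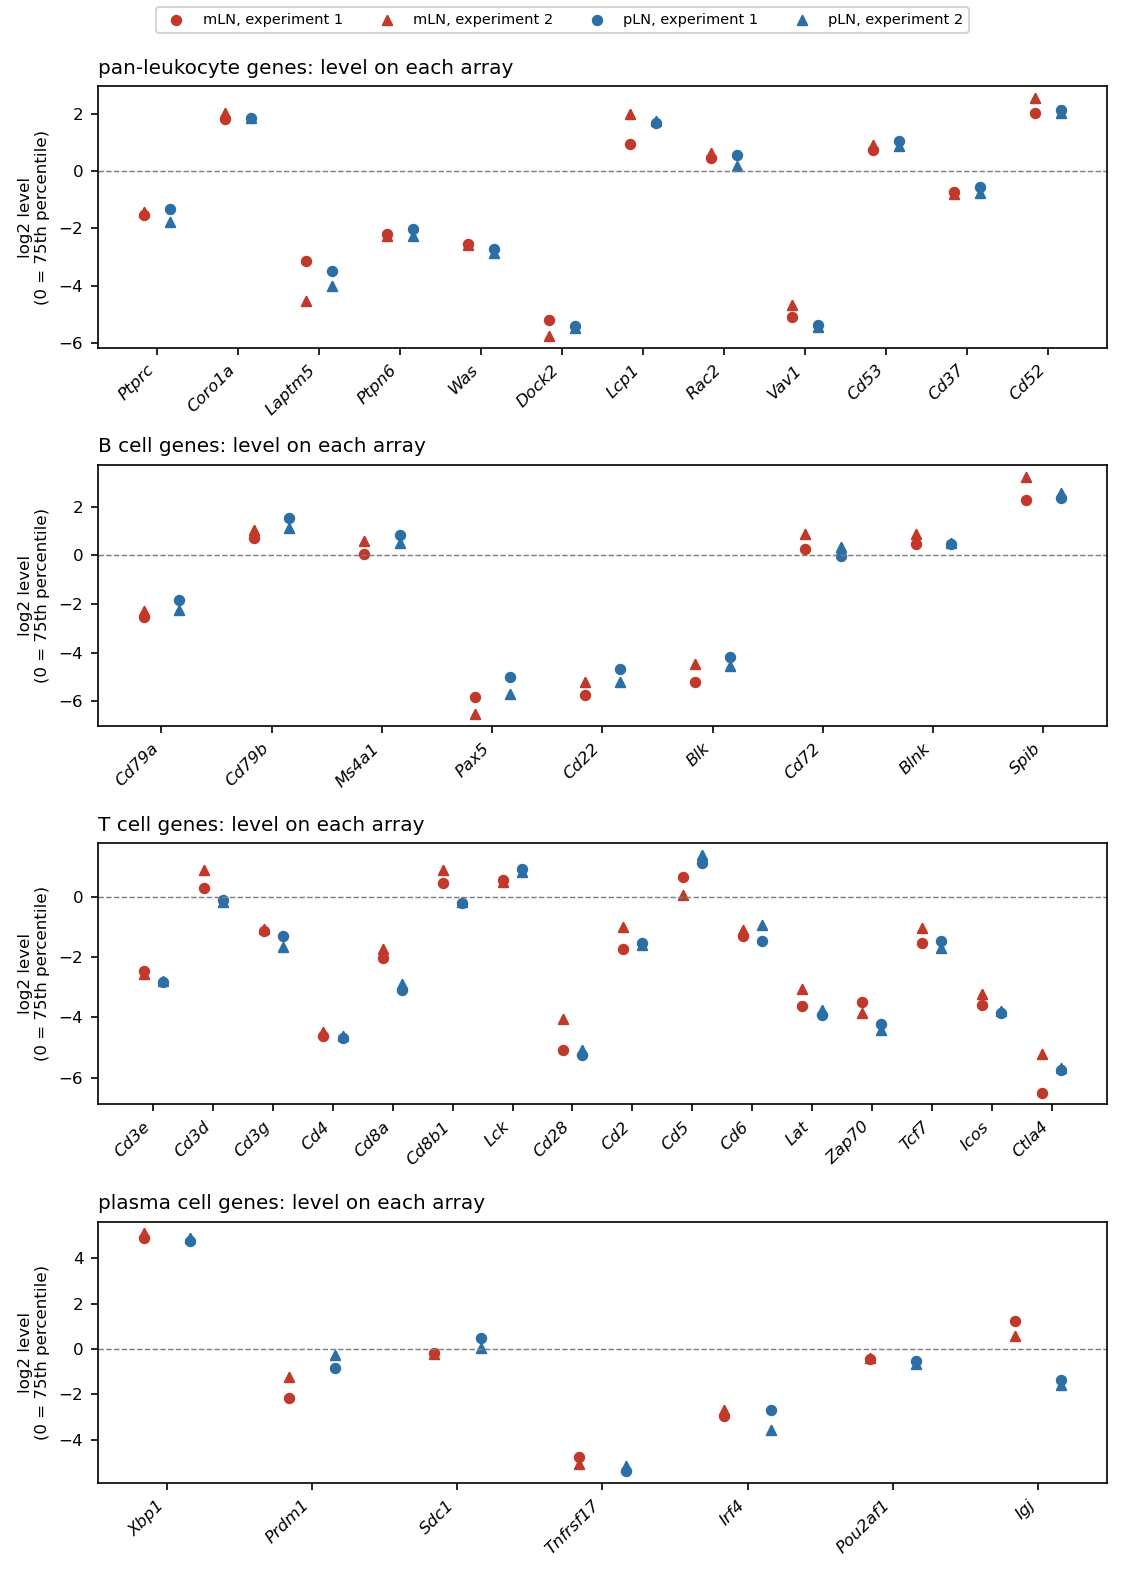
Log2 level of each gene on each array (vertical axis, 0 is the array's 75th percentile), in 4 panels by class, with mLN in red left of pLN in blue, circles for experiment 1 and triangles for experiment 2. Igj stands apart, with mLN at 1.23 and 0.57 against pLN at −1.35 and −1.59, while the nodes overlap for Ptprc and Coro1a.

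Most pan-leukocyte genes had overlapping levels in the nodes. Their summed level was 14.1 and 18.8 multiples in mLN, against 16.4 and 15.4 in pLN, and these ranges overlap. Of the 12 genes, 6 had a positive and 6 a negative log2 fold change, the median was 0.01, and the range ran from −0.25 for Lcp1, the actin-bundling protein L-plastin, to 0.53 for Vav1, an exchange factor downstream of antigen receptors. Vav1 had an unadjusted p below 0.05 but an adjusted p of 0.331 in limma, and 9 of the 12 genes differed in direction between the experiments.

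Ptprc encodes CD45, the protein used for the depletion. It stood at 0.343 and 0.374 multiples in mLN, against 0.402 and 0.294 in pLN. The pLN arrays lay on either side of both mLN arrays. The log2 fold change was 0.06 ± 0.21 (SE, 2 arrays per node, limma adjusted p = 0.944), with a 95% interval of −0.49 to 0.61. Of the 4 Ptprc probes, 2 were not well above background on both arrays of either node.

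Coro1a, which encodes the leukocyte actin regulator coronin 1A, was at 3.52 and 4.06 multiples in mLN, against 3.58 and 3.58 in pLN. One mLN array lay below the pLN arrays and the other above, so the nodes overlapped, with a log2 fold change of 0.08 ± 0.15 (SE, 2 arrays per node, limma adjusted p = 0.886) and a 95% interval of −0.33 to 0.48. Laptm5, which encodes a lysosomal membrane protein of blood cells, was at 0.115 and 0.0430 multiples in mLN, against 0.0888 and 0.0620 in pLN. Its mLN arrays lay outside the pLN arrays on both sides, and the interval of its log2 fold change, −1.50 to 1.34, was the widest in the class. The remaining pan-leukocyte genes, among them the actin regulators Was and Dock2, the phosphatase Ptpn6, the GTPase Rac2 and the surface proteins Cd53, Cd37 and Cd52, had log2 fold changes from −0.14 to 0.23.

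Most T cell genes had a higher mean level in mLN, and none was called. Of 16 genes, 13 had a positive log2 fold change, 10 of them in both experiments, and in 9 the mLN arrays lay above both pLN arrays (20.6% of all genes). The class median was 0.35, from 0.18 in experiment 1 and 0.58 in experiment 2, and the log2 differences ran from −0.90 to 1.11. The summed level was 7.85 and 8.91 multiples in mLN, against 7.83 and 8.12 in pLN, so the nodes overlapped. In this sum Cd5 and Lck, which lay lower in mLN, offset genes that lay higher. The pooled SD of the class median between arrays of a node was 0.24, and without mLN replicate 2 the median was 0.14, within that SD.

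Cd8a and Cd8b1, the chains of the CD8 co-receptor, had the largest positive values in the class. Cd8a was at 0.245 and 0.298 multiples in mLN, against 0.118 and 0.134 in pLN. Both mLN arrays lay above both pLN arrays, 2.15-fold on average, a log2 fold change of 1.11 ± 0.18 (SE, 2 arrays per node, limma adjusted p = 0.102). It was at least 2-fold higher in both experiments, which held for 2.75% of all genes, and no member was 2-fold lower in both, as 1.71% of all genes were. The other Cd8a probes gave 1.00 and 0.67.

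Cd8b1 was at 1.35 and 1.82 multiples in mLN, against 0.859 and 0.880 in pLN. The nodes did not overlap, and the log2 fold change was 0.85 ± 0.20 (SE, 2 arrays per node, limma adjusted p = 0.168), with 0.69 from the probe placed on chromosome 5. Cd4, the co-receptor of helper cells, was at 0.0408 and 0.0444 multiples in mLN, against 0.0387 and 0.0405 in pLN, a log2 fold change of 0.11 ± 0.14 (limma adjusted p = 0.817, 2 arrays per node). The mLN arrays lay just above the pLN arrays, but the second Cd4 probe gave −1.08 and was well above background on 3 arrays, so the direction of Cd4 depends on the probe. The difference between Cd8a and Cd4 was not tested.

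Among the CD3 chains that carry the receptor signal into the cell, Cd3e was at 0.183 and 0.169 multiples in mLN, against 0.141 and 0.143 in pLN. The nodes did not overlap, with a log2 fold change of 0.30 ± 0.14 (SE, 2 arrays per node, limma adjusted p = 0.436). Cd3d had a log2 fold change of 0.72 and Cd3g of 0.39, also without overlap. Of the kinases and adaptors that act next, Zap70 had 0.64 and Lat 0.49, whereas the kinase Lck had −0.33, with both mLN arrays below both pLN arrays. Among surface receptors that tune activation, Cd28 had 0.60, Icos 0.40, Cd2 0.19, Cd6 0.01 and Ctla4 −0.15. Tcf7, a transcription factor of naive and memory T cells, had 0.30.

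Cd5, a receptor that dampens antigen signalling in T cells, went the other way. It was at 1.55 and 1.04 multiples in mLN, against 2.18 and 2.59 in pLN. Both mLN arrays lay below both pLN arrays, with a log2 fold change of −0.90 ± 0.25 (SE, 2 arrays per node, limma adjusted p = 0.222). At an unadjusted p below 0.05, 4 T cell genes were higher in mLN (Cd8a, Cd8b1, Cd3d and Zap70), where 7.80% of all genes were, and Cd5 was lower.

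Receptor chain probes outside the set were also read, chosen after their values were seen. Tcra, the T cell receptor alpha chain, had a log2 fold change of 0.84 ± 0.15 (limma adjusted p = 0.120, 2 arrays per node), and its 3 probes gave 0.74 to 0.84. A beta-chain probe set that the files call Tcrb-V13 had 0.82 ± 0.16 (limma adjusted p = 0.132, 2 arrays per node), and its 5 entering probes gave 0.19 to 0.82. The brightest lay at chr6:41477864-41477923, while others of that name lay at chr6:41065152-41065211 and chr6:41071176-41071235. The name may therefore not describe what each probe reads. Neither Tcra nor Tcrb-V13 passed the threshold.

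**Figure D2:**
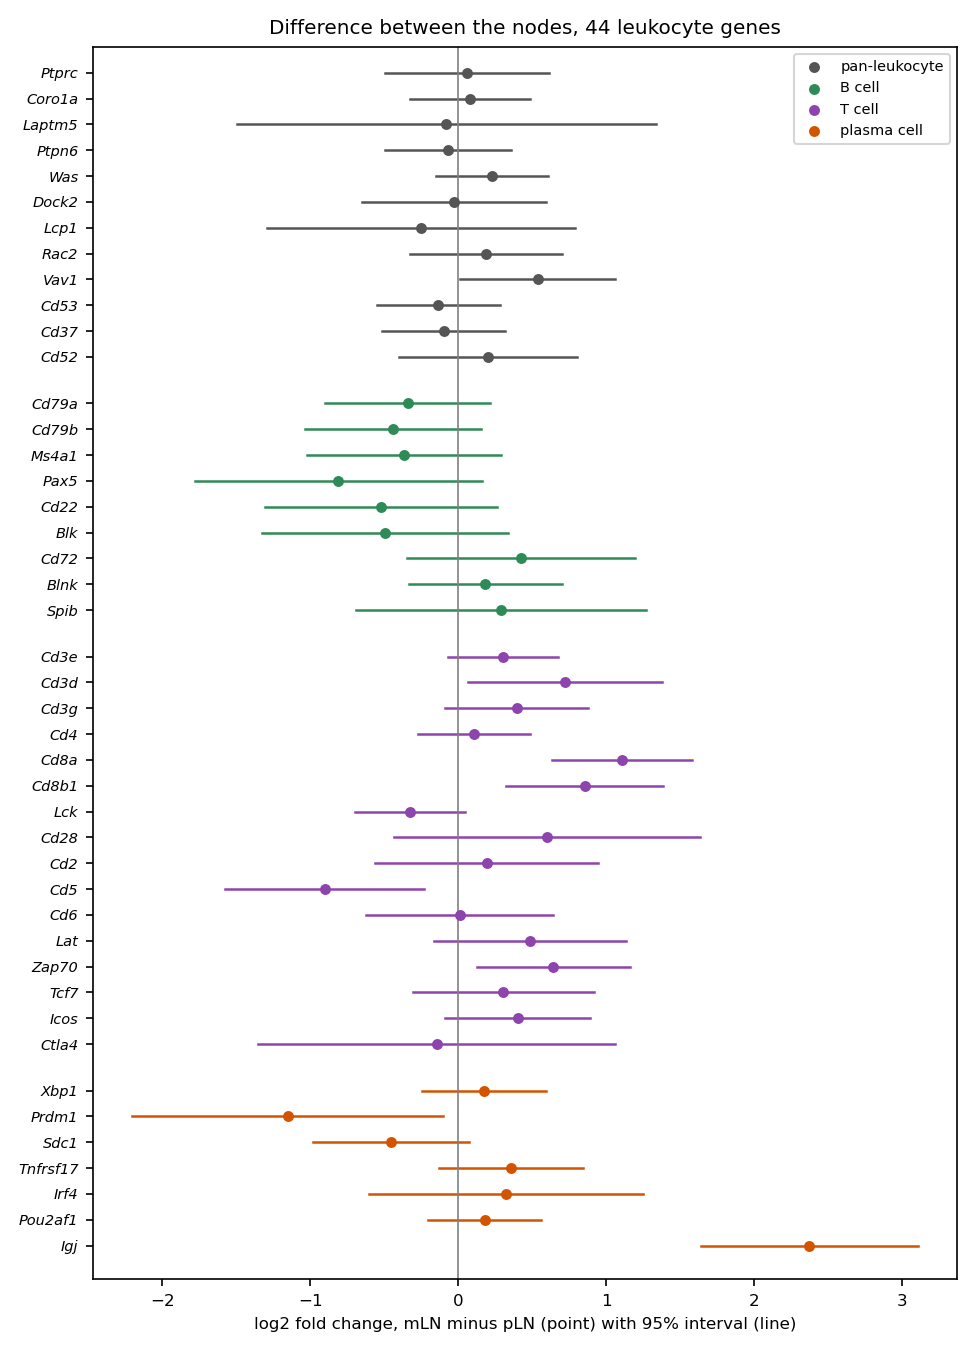
Log2 fold change of mLN over pLN for the 44 genes (horizontal axis, points) with 95% intervals from limma (lines), coloured by class. The Igj interval starts at 1.64, that of Cd8a runs from 0.63 to 1.58, and 13 of 16 T cell points lie above 0.

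B cell genes had a negative median in experiment 1 only. The class median was −0.37, with −0.79 in experiment 1 and 0.05 in experiment 2, and 6 of 9 genes had a negative log2 fold change. The pooled SD of the class median between arrays of a node was 0.32. The summed level was 10.3 and 16.9 multiples in mLN, against 12.5 and 12.5 in pLN, so the nodes overlapped. The median level of the class was higher on the mLN array than on the pLN array of each experiment, at 0.06 and 0.57 against −0.05 and 0.34 on the log2 scale, so this measure and the median difference had opposite signs. With normexp background the class median was 0.23, where that of all genes was 0.38.

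Cd79a and Cd79b encode the signalling chains of the B cell receptor. Cd79a was at 0.173 and 0.207 multiples in mLN, against 0.276 and 0.209 in pLN, and Cd79b was at 1.65 and 2.07 in mLN, against 2.90 and 2.18 in pLN. In both genes the mLN arrays lay below the pLN arrays, narrowly so in experiment 2. The log2 fold changes were −0.34 ± 0.21 (limma adjusted p = 0.563, 2 arrays per node) and −0.44 ± 0.22 (limma adjusted p = 0.477, 2 arrays per node). Ms4a1, which encodes CD20, was at 1.04 and 1.48 multiples in mLN, against 1.80 and 1.43 in pLN, so its nodes overlapped, with −0.37 ± 0.24 (limma adjusted p = 0.598, 2 arrays per node).

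The other B cell genes split by direction. Pax5, the factor that holds B cell identity, had −0.81, the inhibitory receptor Cd22 had −0.52 and the kinase Blk had −0.50, and Pax5 alone was negative in both experiments among these 3. The co-receptor Cd72 had 0.42, the adaptor Blnk 0.18 and the transcription factor Spib 0.29. Spib is also made by plasmacytoid dendritic cells. No B cell gene had an unadjusted p below 0.05.

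Plasma cell genes differed among themselves. Of the 7 genes, 5 had a positive and 2 a negative log2 fold change, the class median was 0.18 with a pooled SD of 0.10, and the values ran from −1.15 to 2.37. The summed level was 34.0 and 37.8 multiples in mLN, against 30.1 and 32.6 in pLN, and most of it came from Xbp1.

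Igj had the largest difference of the set. It was at 2.35 and 1.49 multiples in mLN, against 0.393 and 0.333 in pLN. Both mLN arrays lay above both pLN arrays, by 5.18-fold or 2.37 ± 0.27 on the log2 scale (SE, 2 arrays per node, limma adjusted p = 0.053), with 2.58 in experiment 1 and 2.16 in experiment 2. The second probe gave 2.27. The adjusted p missed the threshold in the fit without a block and was 0.0315 with the experiment as a replicate block. It ranged from 0.0196 to 0.689 over the alternatives tried, and was 0.043 without mLN replicate 2.

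Igh, chosen after its values were seen, was called. Its brightest probe was at 2.14 and 1.26 multiples in mLN, against 0.205 and 0.183 in pLN. The nodes did not overlap, and mLN exceeded pLN 8.49-fold, or by 3.09 ± 0.30 on the log2 scale (SE, 2 arrays per node, limma adjusted p = 0.0365). The adjacent probes of the same transcript differed by 7.46 and 4.23 on the log2 scale, and the size of the difference therefore depended on the probe. For the probe with 7.46 the pLN levels were −5.89 and −6.55. The lowest levels that counted as well above background there were −6.97 and −6.71, so that size is imprecise. The 6 entering probes that carry the Igh name, 3 of them at other positions of the locus, were all higher in mLN, by 0.12 to 7.46. Igh was not called without a filter on dim probes (adjusted p = 0.103), with normexp background (0.689), without pLN replicate 1 (0.199) or without pLN replicate 2 (0.226).

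The IgM heavy chain was read beside it. Igh-6 was at 2.50 and 3.13 multiples in mLN, against 3.76 and 3.08 in pLN, so the nodes overlapped, with a log2 fold change of −0.28 ± 0.20 (SE, 2 arrays per node, limma adjusted p = 0.619). The other Igh-6 probes gave −0.47 and, for a probe placed by the files on chromosome 6, 0.13. IgM is the class that naive B cells carry, and other classes arise by switching. The difference between Igh and Igh-6 was not tested. Antibody gene segments resemble each other, so a probe may read more than 1 of them.

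**Figure D3:**
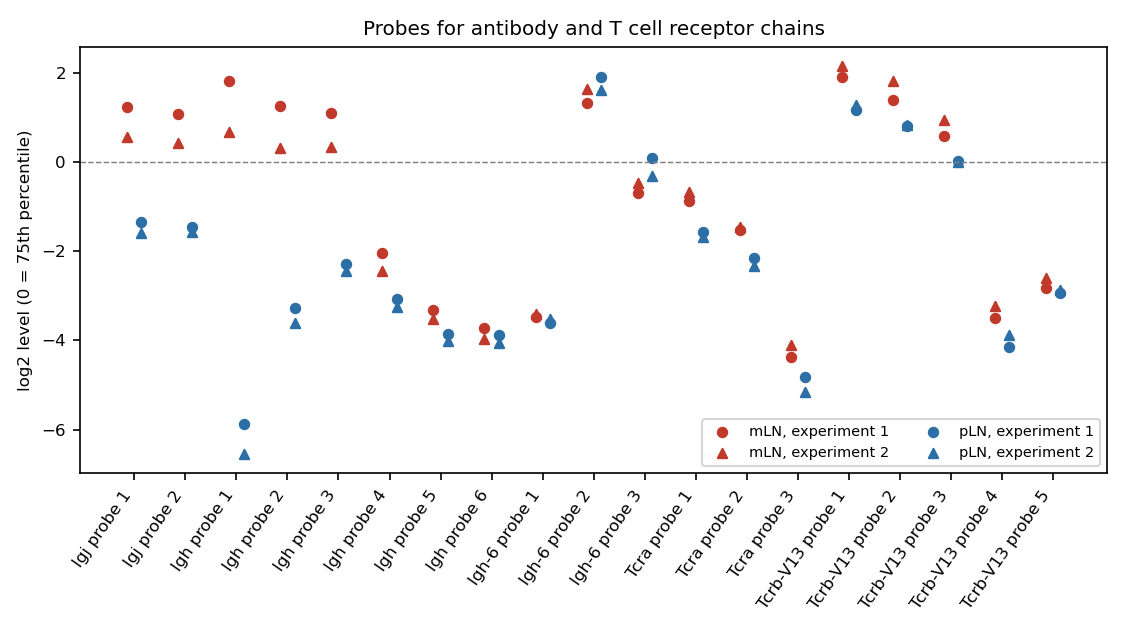
Log2 level (vertical axis, 0 is the array's 75th percentile) of each entering probe for the joining chain, immunoglobulin heavy chains and T cell receptor chains, with mLN in red left of pLN in blue, circles for experiment 1 and triangles for experiment 2. Probes of each gene are numbered by falling difference, and the first Igh probe shows mLN at 1.81 and 0.68 against pLN at −5.89 and −6.55. These pLN levels are near the lowest that counted as well above background. The Igh-6 probe with the highest difference is placed by the files on chromosome 6.

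Xbp1, the transcription factor that expands the secretory apparatus of plasma cells and other secretory cells, was at 29.7 and 34.1 multiples in mLN, against 26.9 and 29.6 in pLN. The mLN arrays lay above the pLN arrays by a small margin, with a log2 fold change of 0.17 ± 0.16 (SE, 2 arrays per node, limma adjusted p = 0.716). Tnfrsf17, which encodes the survival receptor BCMA, was at 0.0365 and 0.0297 multiples in mLN, against 0.0240 and 0.0277 in pLN. Its nodes did not overlap, and the log2 fold change was 0.35 ± 0.18 (SE, 2 arrays per node, limma adjusted p = 0.485). Pou2af1, a B lineage co-activator, had 0.18 and the transcription factor Irf4 had 0.32, with overlap for Irf4.

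Prdm1 and Sdc1 had lower levels in mLN in both experiments, and neither was called. Prdm1 encodes Blimp-1, which drives plasma cell differentiation and is also made by epithelium and T cells. It was at 0.222 and 0.421 multiples in mLN, against 0.558 and 0.831 in pLN, a log2 fold change of −1.15 ± 0.39 (SE, 2 arrays per node, limma adjusted p = 0.300). The nodes did not overlap. Sdc1, the proteoglycan CD138 of plasma cells and epithelium, had −0.46.

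Markers of other secretory and epithelial cells moved between the nodes too. Of 13 pancreatic acinar genes tested, all 13 had a positive log2 fold change and 1 was called, the amylase gene Amy2a5, with a median of 7.56 and a summed level of 1063 and 386 multiples in mLN, against 23.0 and 1.43 in pLN. Of 12 genes of surface and glandular epithelium, 10 had a negative log2 fold change, Csn3, Wfdc2 and Esrp1 were called lower and Krt7 higher, with a median of −1.80 and a summed level of 4.995 and 4.38 in mLN against 7.49 and 15.8 in pLN. On each mLN array 10 of these 12 were well above background, and Elf5 and Esrp1 were not. Of 10 mesothelial genes 6 (Upk3b, Msln, Upk1b, Wt1, Bnc1 and Lrrn4) were called higher in mLN, with a summed level of 47.5 and 34.6 against 9.91 and 11.9 in pLN. The part of these cells in the Igj, Xbp1, Prdm1 and Sdc1 values was not tested.

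Further genes of each lineage, from lists also chosen with earlier results known, gave no calls in the fit without a block. The 27 other B cell genes tested had a median log2 difference of −0.27, with 22 negative, and the 2 largest shared changes were opposed, with Cd40 at −1.31 (limma adjusted p = 0.111) and the complement receptor Cr2, also made by follicular dendritic cells, at 1.30 (limma adjusted p = 0.178). The 27 other T cell genes had a median of 0.23, with 17 positive. In that list the adaptor Lcp2 had 1.34 (limma adjusted p = 0.151) and the transcription factor Gata3, also made by epithelium, had −2.75 (limma adjusted p = 0.0985, called at 0.0467 with an intensity trend in the variance, while normexp background gave −0.79). The 18 other plasma cell genes had a median of 0.17, with 12 positive. The 2 named by the rule, both of the endoplasmic reticulum, were Derl3 at 1.73 (limma adjusted p = 0.155, and 0.0417 with the replicate block) and Fkbp11 at 0.89 (limma adjusted p = 0.0895, and 0.034 with an intensity trend in the variance). Both are used by secretory cells generally, and the acinar values above apply to them as well.

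Of the immunoglobulin chain list, 8 genes were tested and 6 were positive, with a median of 0.37. The light-chain segment Iglv1 had 1.19 (limma adjusted p = 0.139) and the heavy-chain segment Igh-VJ558 had 1.13 (limma adjusted p = 0.173). The 30 other pan-leukocyte genes had a median of 0.09, with Lsp1 at 1.76 (limma adjusted p = 0.205) and Evi2a at −1.11 (limma adjusted p = 0.204).

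Innate leukocyte markers were read in the same way. The 13 natural killer and cytotoxic genes had a median of −0.03 and no call. The largest shared changes there were Gzmk at 1.56 (limma adjusted p = 0.494) and Gzmb at −0.53 (limma adjusted p = 0.548). Gzmk was well above background on 0 of 2 pLN arrays, so its size is imprecise. The 27 myeloid genes had a median of −0.27, with 18 negative, and both genes called were higher in mLN. Marco, a scavenger receptor of sinus macrophages and lymphatic endothelium, had a log2 fold change of 3.28 ± 0.15 (SE, 2 arrays per node, limma adjusted p = 0.0108), and Mrc1, the mannose receptor of the same cell types, had 2.05 ± 0.20 (SE, 2 arrays per node, limma adjusted p = 0.0365). Neither Marco nor Mrc1 was called with normexp background. Without a filter on dim probes, 2 of Igh, Marco and Mrc1 were not called, Igh among them. Mrc1 was also not called with the replicate block (limma adjusted p = 0.054) or with any 1 array left out. Marco was also not called without pLN replicate 1 or without pLN replicate 2. The summed myeloid level was 87.6 and 79.5 multiples in mLN, against 49.96 and 37.9 in pLN, and Marco alone turned its direction. Without Marco it was 31.0 and 29.4 in mLN, against 44.7 and 32.2 in pLN.

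Neutrophil genes of the myeloid list, chosen after their values were seen, lay lower in mLN in both experiments, S100a8 and S100a9 by at least 2-fold. S100a8 and S100a9 encode the calprotectin subunits of neutrophils and monocytes, which epithelium can make too. S100a8 was at 0.379 and 0.201 multiples in mLN, against 2.13 and 0.972 in pLN, a difference of −2.38 ± 0.51 on the log2 scale (SE, 2 arrays per node, limma adjusted p = 0.150, and 0.0251 with the replicate block). S100a9 was at 1.12 and 0.562 multiples in mLN, against 6.83 and 2.79 in pLN, a difference of −2.46 ± 0.57 (SE, 2 arrays per node, limma adjusted p = 0.168, and 0.026 with the replicate block). In both genes the mLN arrays lay below both pLN arrays, and neither passed in the fit without a block. Csf3r, the receptor for granulocyte colony-stimulating factor, exceeded background clearly on both pLN arrays but on 0 of 2 mLN arrays. Its level was at least 2.29-fold lower in mLN (limma adjusted p = 0.0693, and 0.044 with median scaling). This bound sets the mLN mean at the lowest signal that counted as well above background, and the measured log2 means were −8.58 in mLN and −5.59 in pLN. In experiment 2 the pLN level was −6.12, and that lowest signal on the mLN array was −6.51. A 2-fold difference is therefore not shown for Csf3r in that experiment alone. Normexp background turned the direction of Csf3r, to 1.28. The epithelial sum given above was also lower in mLN. Within pLN this sum was 7.49 in experiment 1 and 15.8 in experiment 2, each from 1 array. The part of epithelium in these genes was not tested.

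The 7 melanocyte genes, read because Irf4 is also made by pigment cells, had a median of −0.45 with Mlana called lower, and a summed level of 0.987 and 0.927 multiples in mLN against 1.77 and 1.65 in pLN. Their part in the Irf4 value was not tested.

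**Figure D4:**
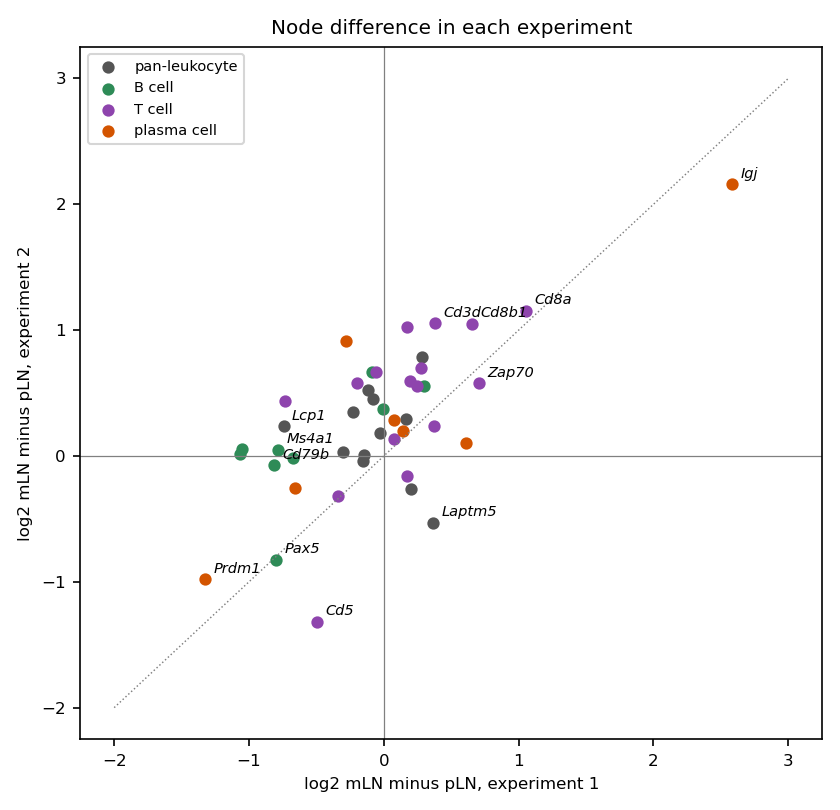
Log2 difference of mLN minus pLN in experiment 1 (horizontal axis) and experiment 2 (vertical axis) for the 44 genes, coloured by class, with the dotted line marking equal values. Igj and Cd8a lie at 1 or more on both axes, and most B cell points lie left of 0 near the horizontal line.

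Across the 44 genes the mLN minus pLN differences of the experiments correlated with r = 0.682, against 0.713 across all genes. Genes are not independent replicates, and each point rests on 1 array per node. In 17 genes the difference was positive in both experiments, in 8 it was negative in both, and in 19 the sign differed. Only Cd8a and Igj were at least 2-fold apart the same way in both, each read from its brightest probe. Another Cd8a probe gave a mean difference of 0.67. None of the 44 differed at least 2-fold between the experiments the same way in both nodes.

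Promoter sequences, the 250 bases before the start, were available for 33 of the 44 genes, in 40 entries of RefSeq on GRCm38.p6. They were searched on both strands for the octamer ATGCAAAT, the E-box CACCTG and the PU box GAGGAA, which are binding motifs of B lineage POU factors, E proteins and ETS factors such as PU.1. The octamer was in 2.50% of the entries (1.60% of all 32851 promoters), the E-box in 37.5% (17.2% of all) and the PU box in 52.5% (23.3% of all). By class the PU box was in 46.2% of pan-leukocyte, 33.3% of B cell, 64.3% of T cell and 57.1% of plasma cell entries. The promoters of Cd8a and Jchain, the genes at least 2-fold apart in both experiments, are shown with any motif in capitals. The Cd8a window, chr6:71373177-71373426 on the plus strand, holds 1 PU box, read here from its opposite strand. The Jchain window, chr5:88527898-88528147 on the minus strand, holds none of these letters.
Cd8a promoter: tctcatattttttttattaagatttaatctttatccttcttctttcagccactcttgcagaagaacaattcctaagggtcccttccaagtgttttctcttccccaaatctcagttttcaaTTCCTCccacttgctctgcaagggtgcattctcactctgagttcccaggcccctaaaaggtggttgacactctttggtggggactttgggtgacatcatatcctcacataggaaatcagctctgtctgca
Jchain promoter: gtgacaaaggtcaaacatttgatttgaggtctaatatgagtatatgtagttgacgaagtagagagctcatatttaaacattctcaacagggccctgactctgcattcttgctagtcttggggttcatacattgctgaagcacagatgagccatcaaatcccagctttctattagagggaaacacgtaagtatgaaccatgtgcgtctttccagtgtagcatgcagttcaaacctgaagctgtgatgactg
These matches describe letters in a window and are not evidence of binding.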

How the data were processed

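The deposited intensity values were produced with the software Agilent Feature Extraction (version 9.5.3.1 per the submitters' processing notes), which, per the file headers, subtracted background and removed trends. All 4 arrays lay on 1 slide, which leaves a slide effect inestimable. The authors also deposited a value table, whose intensity values equal the processed signal times 1 factor per array with a floor of 15, as found by comparing it with the scanner signals. It served only as an alternative. The deposited files also hold other columns, 0 or 1 flags for signals well above background, saturation and outliers.

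Control spots and spots marked as outliers were left out, and signals were divided by the array's 75th percentile before taking log2. Probes had to be well above background in the whole of 1 node or more, and the brightest entering probe stood for its gene. Nodes were compared with limma 3.58.1 in R 4.3.3 in a fit with no block, and p-values were adjusted by Benjamini-Hochberg over 21392 genes at a threshold of 0.05. An exact permutation of 2 against 2 arrays cannot go below 0.333. The code was tested on simulated data. The number of arrays limits the precision.

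The experiment numbers in the labels pair an mLN with a pLN sample, and deviations of equal number correlated with r = 0.246 across genes. The block is given where it changed a call. Members, lists and motifs were chosen with earlier results of these data known. Values on every array are given for the commonest markers of each class and for members called or at least 2-fold apart the same way in both experiments. From other lists, called genes and otherwise up to 2 with the largest change of the same sign in both experiments were named. A few more members, the receptor chains and 3 neutrophil genes were chosen after their values were seen. No mm8 genome or annotation was used here, so probes are not assigned to exons or UTRs, and promoters come from a RefSeq table on GRCm38.p6. Alternatives were 13: normexp background, median scaling, quantile normalization, no filter on dim probes, a filter on all 4 arrays, the mean of probes, the value table, an intensity trend, the replicate block and leaving out each array.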

Additional observations from a re-analysis of the deposited data

How the results depend on the processing

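Class medians kept their sign under the alternatives, except for B cell with normexp background and pan-leukocyte with 1 array left out. Normexp background moved the median of all genes to 0.38 and the medians to 0.26 (pan-leukocyte), 0.23 (B cell), 0.82 (T cell) and 0.54 (all 44 genes). Relative to all genes these were −0.12, −0.15, 0.44 and 0.16. The plasma cell median with normexp was 0.23, or −0.15 relative to all genes. With 1 array left out, medians ranged from −0.12 to 0.15 (pan-leukocyte), −0.54 to −0.12 (B cell), 0.14 to 0.52 (T cell), 0.11 to 0.25 (plasma cell) and 0.02 to 0.23 (all). The T cell median fell to 0.14 without mLN replicate 2 and the B cell median was −0.12 without mLN replicate 1.

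Calls over all genes numbered 0 with normexp (569 at an unadjusted p below 0.05), 354 with median scaling, 44 without a filter on dim probes and 441 with an intensity trend, 333 with the replicate block, and 0 to 190 with 1 array left out, the 0 arising without either pLN array (1877 and 2297 at an unadjusted p below 0.05). Of the 44 genes, 1 (Igj) was called with median scaling, the filter on all 4 arrays, the value table, the intensity trend and the replicate block, and 0 to 1 with 1 array left out. Among these 44 genes the replicate block changed no other call.

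There were 34 reversals of sign in 20 of the 44 genes, 18 with 1 array left out and 13 with normexp. Under normexp Coro1a had −0.16, Laptm5 1.41, Ptpn6 0.55, Dock2 1.58, Cd37 0.0847, Cd52 −0.0693, Cd79a 0.34, Pax5 1.46, Cd22 1.19, Blk 1.07, Spib −0.0327, Ctla4 1.55 and Xbp1 −0.16. The mean of probes gave Cd4 −0.49 and Cd6 −0.14, and quantile normalization gave Dock2 0.0526. With 1 array left out the ranges were −0.17 to 0.28 for Ptprc, −0.0264 to 0.18 for Coro1a, −0.79 to 0.63 for Laptm5, −0.19 to 0.0525 for Ptpn6, −0.31 to 0.25 for Dock2, −0.79 to 0.28 for Lcp1, −0.21 to 0.0079 for Cd37, −0.0599 to 0.46 for Cd52, −0.0225 to 0.39 for Blnk, −0.20 to 0.78 for Spib, −0.17 to 0.55 for Cd2, −0.26 to 0.27 for Cd6, −0.78 to 0.48 for Ctla4 and −0.12 to 0.76 for Irf4. Igj had 2.04 to 2.70 and Cd8a 0.96 to 1.25. The cause of the normexp changes was not tested. Leaving out an array leaves 1 sample in a node, assumed to vary like the other. Alternatives for genes outside the set were chosen after seeing the data, and of these genes Csf3r alone changed sign, to 1.28 with normexp. Dim probes such as those of Pax5, Ctla4, Dock2 and Cd22 limit what their signs can show.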
